A study of Mus musculus with 27 samples.

Results

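The clustered histone genes are the rows of the count table whose symbol starts with Hist1h, Hist2h, Hist3h or Hist4h, and 43 of the 22340 rows met that rule. By symbol 5 are genes of the linker histone H1, 9 of H2A, 13 of H2B (with 1 pseudogene, Hist3h2bb-ps), 5 of H3 and 11 of H4. Of the members 33 belong to the Hist1 cluster on chromosome 13, 7 to Hist2 on chromosome 3 and 3 to Hist3 on chromosome 11, and no row has a Hist4h symbol. RNA was sequenced from the cortex of wild-type C57BL6 mice aged 7 to 8 weeks, after depletion of ribosomal RNA and with no selection of polyadenylated RNA named in the labels. The 27 libraries formed 9 groups of 3. In 8 of them a suture had blocked the right middle cerebral artery for 35 min with the common carotid artery tied, only animals that met limits on the fall and recovery of blood flow were used, and ipsilateral or contralateral cortex was taken 3, 6, 12 or 24 h after reperfusion. Sham mice, the remaining group, were anaesthetised and had the arteries exposed, with no suture inserted. All groups therefore share anaesthesia and neck surgery, contralateral cortex comes from animals with a stroke, and the labels give neither the time nor the hemisphere of the sham tissue. Each replicate number stands for a different day of surgery, and p-values measure the spread between such libraries.

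Histones are the proteins around which DNA is wound, and the genes of these clusters are copied mainly in S phase, when new DNA has to be packed. Their mRNAs usually end in a conserved stem-loop instead of a poly(A) tail, and the stem-loop binding protein SLBP guides their processing, translation and decay. Some of the genes also give polyadenylated transcripts, which are known from cells that no longer divide, such as neurons.

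The stem-loop was searched in the annotated transcripts (GENCODE M21) on the gene's strand as GG, 3 bases, TT, 1 base, T, 1 base, A, 3 bases and CC, with each set of 3 bases able to pair with the other (G with T allowed). It was found in 31 of 43 members and in 70 of 22121 other genes (0.316%). The 31 members used 7 forms of the 16 bases, and 1 member of each form is shown because a transcript that ends there carries no poly(A) tail. Capitals mark the stem and loop, and the flanks are in lower case.
Hist1h2bf: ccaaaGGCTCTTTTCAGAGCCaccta
Hist1h4m: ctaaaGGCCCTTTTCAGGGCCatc
Hist1h2bb: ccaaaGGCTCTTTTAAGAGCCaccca
Hist1h4i: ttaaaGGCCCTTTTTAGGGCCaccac
Hist1h4a: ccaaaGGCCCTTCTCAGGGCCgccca
Hist2h2ac: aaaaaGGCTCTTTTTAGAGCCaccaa
Hist1h4j: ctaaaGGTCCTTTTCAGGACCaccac
The form of Hist1h2bf was carried by 17 members, that of Hist1h4m by 6, that of Hist1h2bb by 3 and that of Hist1h4i by 2. The other 3 forms were found once each. The 6 members with the form of Hist1h4m all encode H4, and no form was shared between H4 genes and genes of the other histones. In 13 members the stem-loop ended within 100 bases of the annotated transcript end, in 18 it lay further upstream, so that the annotation reaches past it, and in 12 it was not in the annotated transcript. Those 12 include Hist1h4k, Hist1h2ai and Hist1h2ak, whose annotated transcripts are 312, 393 and 393 bases long.

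RefSeq windows from 250 bases before to 50 bases after the gene start (GRCm38.p6) were matched for 38 members. The letters CCAAT on either strand were in 31 of them (81.6%), against 12289 of 32851 windows of all genes (37.4%). TATAAA on either strand was in 24 (63.2%), against 4473 (13.6%). The 3 windows below belong to members with the lowest p in a comparison described further on, and capitals mark CCAAT and TATAAA on either strand (ATTGG and TTTATA on the other one).
Hist1h2bf, chr13:23574158-23574457, minus strand: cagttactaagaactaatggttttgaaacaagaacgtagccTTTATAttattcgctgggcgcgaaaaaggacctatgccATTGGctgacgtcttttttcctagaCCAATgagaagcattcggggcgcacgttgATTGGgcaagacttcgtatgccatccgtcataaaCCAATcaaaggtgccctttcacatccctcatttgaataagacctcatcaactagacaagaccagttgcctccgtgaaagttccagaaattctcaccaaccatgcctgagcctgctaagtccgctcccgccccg
Hist1h2bb, chr13:23746484-23746783, plus strand: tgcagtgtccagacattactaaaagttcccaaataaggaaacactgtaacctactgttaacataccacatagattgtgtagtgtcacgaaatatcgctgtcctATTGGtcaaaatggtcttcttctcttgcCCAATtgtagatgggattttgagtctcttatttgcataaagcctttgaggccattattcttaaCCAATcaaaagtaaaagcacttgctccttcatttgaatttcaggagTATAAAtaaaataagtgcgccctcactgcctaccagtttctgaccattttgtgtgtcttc
Hist1h4i, chr13:22041313-22041612, minus strand: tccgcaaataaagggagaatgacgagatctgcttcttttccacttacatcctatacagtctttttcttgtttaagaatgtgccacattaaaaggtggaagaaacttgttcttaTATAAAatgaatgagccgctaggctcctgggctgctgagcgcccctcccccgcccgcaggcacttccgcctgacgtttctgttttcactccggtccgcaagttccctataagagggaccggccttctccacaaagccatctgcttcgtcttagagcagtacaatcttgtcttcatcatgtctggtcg
The window of Hist1h2bf holds CCAAT 4 times. Its TATAAA match lies on the other strand, that of the H2A gene Hist1h2ad, whose annotated start is 185 bases away and which is transcribed in the opposite direction. The window of Hist1h2bb holds CCAAT 3 times and TATAAA once, and that of Hist1h4i holds TATAAA once and no CCAAT. A match is only a match of letters.

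Abundance is expressed in CPM, a gene's reads relative to the size of the library, which was normalized by TMM. Of the 43 members 40 were abundant enough to be tested. The 3 others were Hist1h2bq with 58 counts in all libraries together, Hist1h2br with 82, and Hist2h3c1 with 0, which allows up to 0.00273 CPM over the summed depth (3 counts, counting error only). For Hist2h3c1 no stretch of 50 bases is unique among annotated transcripts and its exon overlaps the gene Gm20634 on the same strand. In 17 members fewer than 50% of the 50-base stretches are unique. No source used here says how reads with several matches were counted, so the values of these near-identical copies are uncertain.

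H4 genes took 50.1% of the counts of all members, H1 genes 22.2%, H2B 16.6%, H2A 7.4% and H3 3.66%. These shares also follow transcript length. Per kb of exon the highest mean levels over all libraries were those of the H4 genes Hist1h4h (48.7 CPM per kb), Hist1h4k (42.1), Hist1h4d (40.3) and Hist1h4c (38.0). The highest H1 genes were Hist1h1c (18.1 CPM per kb), Hist1h1e (11.5) and Hist1h1a (11.5), and the highest H2B genes Hist3h2ba (17.1), Hist1h2bc (13.4) and Hist1h2bg (10.2). Among H2A genes Hist2h2ac (11.7 CPM per kb), Hist1h2ak (6.09) and Hist1h2ai (3.39) led, and among H3 genes Hist1h3e (10.6), Hist1h3a (3.73) and Hist1h3c (0.605). Only 28.5% of the 50-base stretches of Hist1h4k are unique, so its place in this order is uncertain. In the plot of levels per kb the 5 highest members are H4 genes of each of the 3 end types.

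**Figure D1:**
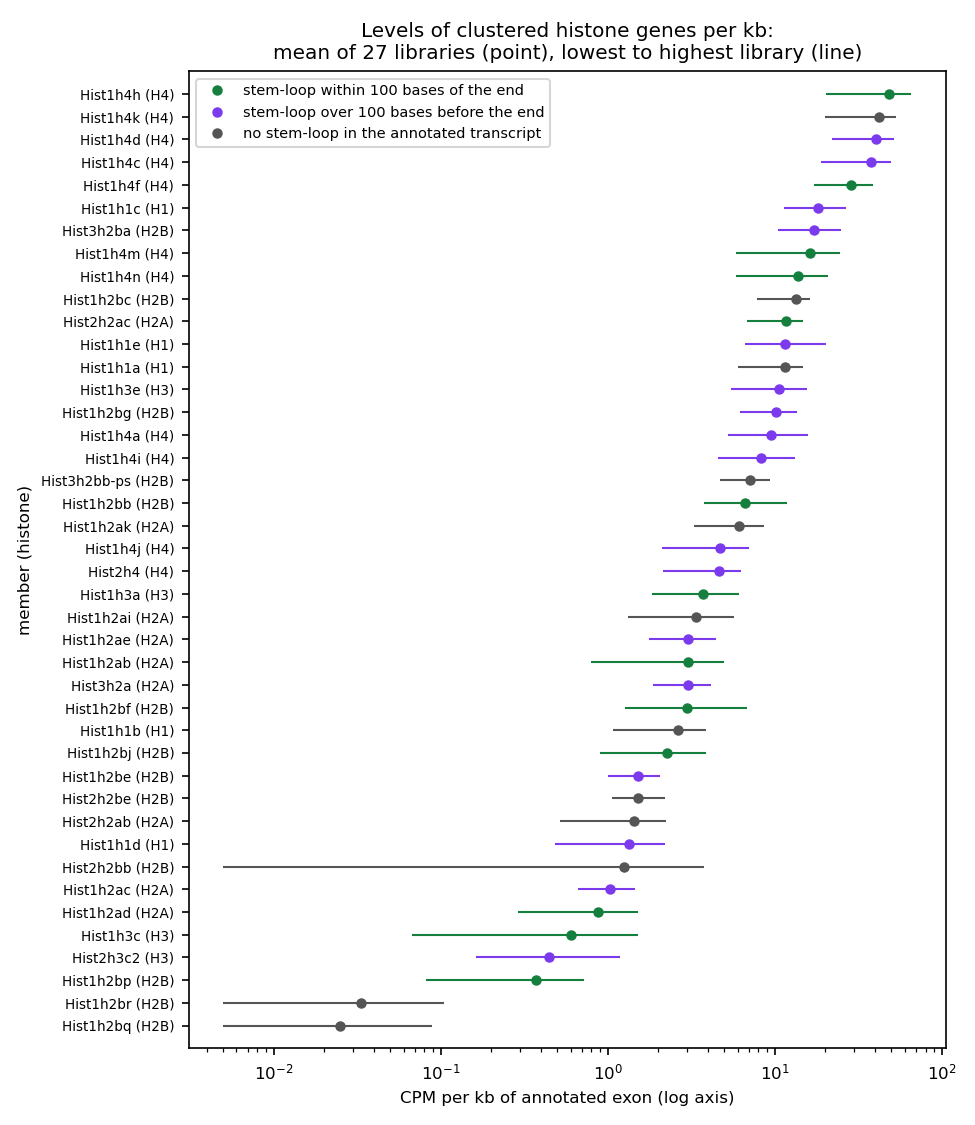
Mean level of each member over the 27 libraries in CPM per kb of annotated exon on a log axis (points), with lines from the lowest to the highest library and colours for the place of the stem-loop. Hist2h3c1, at 0, is left off and lines that reach 0 end near the left edge. The H4 genes Hist1h4h and Hist1h4k lead, and Hist1h2br and Hist1h2bq lie lowest.

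Library totals ran from 26505996 to 48830897 counts, and the summed level of all members differed by 2.16-fold between the highest and the lowest library. Replicate 1 of contralateral cortex at 3 h stood apart. Its summed level was 182 CPM against 374 and 364 in the other replicates of its group, 35 of the 40 tested members were lower there than in both of them, and 27 had their lowest level of all 27 libraries there. Its levels also followed the GC content of genes, with the GC-richest 10% of all tested genes at -1.07 on the log2 scale relative to the poorest 10%, while the other libraries lay between -0.255 and 0.348. Replicate 1 of ipsilateral cortex at 24 h had the next lowest members, a median of -0.439 on the log2 scale from each gene's mean, and the largest share of mitochondrial transcripts (41.6% of counts). The part of GC content and RNA quality in the members' levels was not tested. Calls under a GC correction are given in the last section, and results are given with and without these libraries where they differ. Members deviated together within groups, with a median correlation of 0.475 over 780 pairs of members, and 0.257 without the contralateral library at 3 h. These pairs share libraries and depth and the values are a description.

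**Figure D2:**
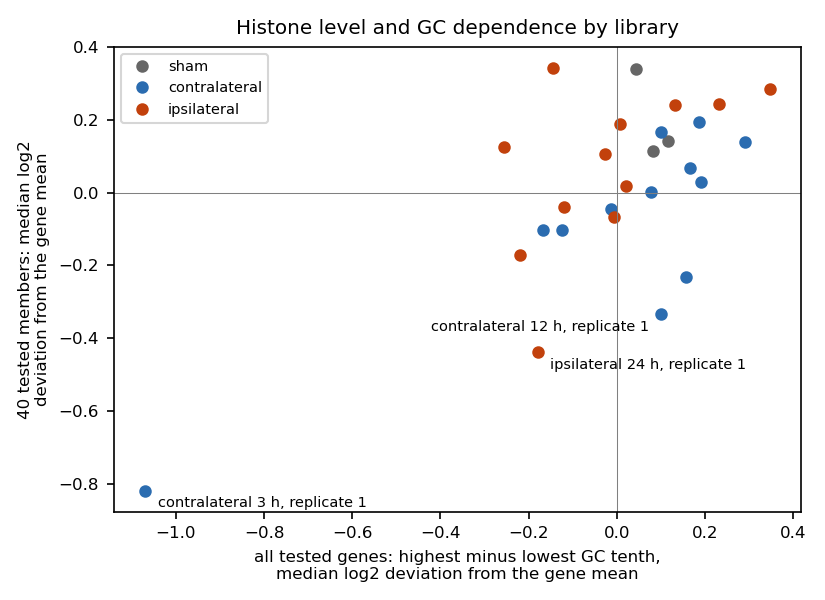
Each point is 1 of 27 libraries. The horizontal axis gives the median log2 deviation of the GC-richest 10% of all tested genes minus that of the poorest 10%, and the vertical axis the median log2 deviation of the 40 tested members from each gene's mean. Replicate 1 of contralateral cortex at 3 h lies alone at -1.07 and -0.819.

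Summed over all members, sham cortex had 393, 327 and 313 CPM. Contralateral cortex had 182 to 374 CPM 3 h after reperfusion, 314 to 367 after 6 h, 249 to 305 after 12 h and 262 to 321 after 24 h. Ipsilateral cortex had 352 to 384, 292 to 373, 298 to 358 and 228 to 321 CPM at these times. Ipsilateral and contralateral libraries overlapped at every time. The H1 sum was 82.8 to 96.5 CPM ipsilaterally at 3 h, above the 61.7 to 77.5 of sham, and 41.8, 109 and 103 contralaterally at 3 h. At 24 h it was 49.2 to 75.3 CPM over both sides, and no H1 member passed in any comparison. Within it Hist1h1e, a linker histone gene, had 26.3, 15.6 and 17.8 CPM in sham, 12.7, 39.2 and 37.1 contralaterally at 3 h and 27.6, 29.5 and 31.1 ipsilaterally. Apart from the contralateral library that stood apart, both sides at 3 h lay above sham, but the comparisons did not pass (edgeR adjusted p = 0.62 ipsilaterally and 0.586 contralaterally). Its exon overlaps Hist1h2be on the same strand, which makes the split of reads between this pair uncertain. In bulk tissue a change in the number of cells that make a transcript cannot be told apart from a change in the RNA per cell.

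**Figure D3:**
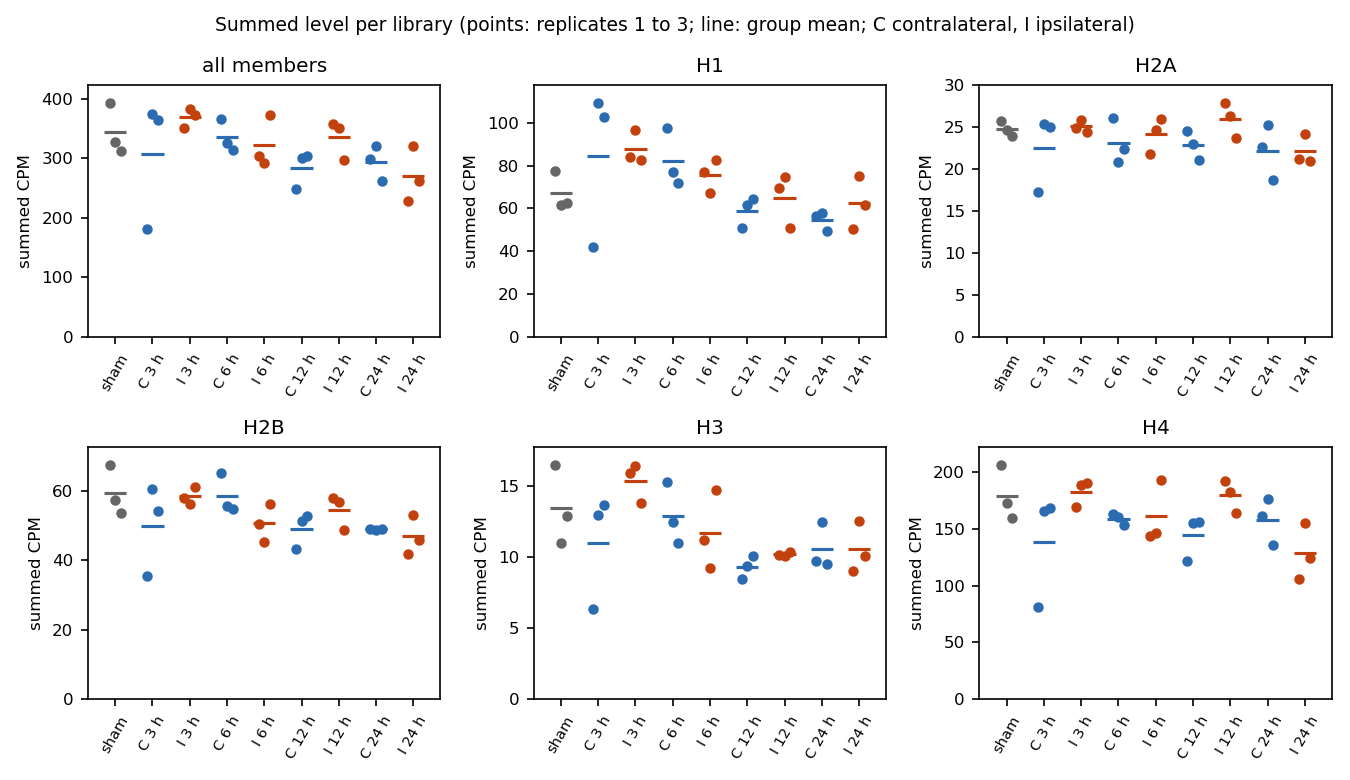
Summed CPM of all members and of the members of each histone, per library (points, replicates 1 to 3 from left to right) and group mean (line), in sham, contralateral (C) and ipsilateral (I) cortex. All axes start at 0. The low contralateral library at 3 h is visible in every panel, and ipsilateral and contralateral libraries overlap in the panel of all members at each time.

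Ipsilateral against contralateral cortex asks which members differ with the side of the occlusion. Over the mean of the 4 times 2 H2B genes, 3 H4 genes and 1 H3 gene were higher in ipsilateral cortex, by 1.27-fold to 1.91-fold, and 3 genes named as H2B were lower, by 1.24-fold to 1.28-fold. The contrast does not show which side differed from sham. Against sham only Hist1h4i of these 9 passed, lower ipsilaterally at 24 h. The sham median was nearer the contralateral median for Hist1h4j and Hist3h2bb-ps, and nearer the ipsilateral one for the others of the 9. Sham, ipsilateral and contralateral medians were 8.08, 7.97 and 5.35 CPM for Hist1h4m and 7.55, 7.36 and 4.85 for Hist1h4i. For Hist3h2ba they were 9.8, 9.2 and 12.2 CPM. No member passed at 3 h, and 2 of 40 tested members passed at each of 6, 12 and 24 h, with edgeR's quasi-likelihood test and an adjusted p under 0.05. Of all 18087 tested genes 0.249%, 7.99%, 12.2% and 19.1% passed at these times, so the members' shares did not exceed the background at 6, 12 or 24 h. The 9 members that passed in the mean of the 4 times stand against 33% of all genes (17.7% higher and 15.3% lower). The median log2 fold change of the members was 0.263, -0.0058, 0.345 and -0.0077 in time order, and that of all tested genes lay between -0.02 and 0.03. The 12 h median includes contralateral replicate 1, whose members had a median log2 deviation of -0.334 from each gene's mean. Contralateral replicates 2 and 3 at 12 h had -0.0464 and -0.103, and the 12 h median without replicate 1 is not given here. At 3 h 36 of 40 members had a positive log2 fold change, 8 had an unadjusted p under 0.05 (20% of members, against 10.7% of all tested genes) and DESeq2 called 1. Without the contralateral and ipsilateral libraries that stood apart the 3 h median was 0.06, that at 24 h 0.134, and the counts at 6 and 12 h became 5. The share of all genes called without those libraries is not given here, so these counts cannot be set against the background. At 3 h 1 member passed without contralateral replicate 2. The count of 2 became 1 or 0 without any 1 library at 6 h except ipsilateral replicate 1, without any at 12 h except ipsilateral replicate 2, and became 1 at 24 h without ipsilateral replicate 3.

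The H2B gene Hist1h2bf had the lowest p of the members at 12 h, at 24 h and over the 4 times. It is on chromosome 13 (mm10, 23573736 to 23574196, minus strand) and has 1 annotated exon of 461 bases. At 12 h its level was 3.14, 1.28 and 2.52 CPM ipsilaterally against 0.92, 0.602 and 1.14 contralaterally. All 3 ipsilateral libraries were above all 3 contralateral ones, and the level was 2.62-fold higher (log2 fold change 1.39 ± 0.32, SE, adjusted p = 0.00456 with edgeR). At 24 h it was 1.35, 1.87 and 1.96 CPM against 0.658, 0.585 and 0.72, again without overlap and 2.64-fold higher (1.4 ± 0.33, edgeR adjusted p = 0.00365). Sham libraries had 1.55, 1.59 and 1.52 CPM, above the contralateral libraries and within the range of the ipsilateral ones at 24 h. Neither side passed against sham at any time, with values at 24 h of 0.15 ± 0.31 ipsilaterally and -1.24 ± 0.33 contralaterally on the log2 scale (edgeR adjusted p = 0.762 and 0.198). Over 4 times the ipsilateral level was 1.91-fold higher (0.93 ± 0.16, edgeR adjusted p = 6.13e-05) and higher in 11 of 12 pairs of libraries with the same time and replicate number. Without ipsilateral replicate 1 the 12 h difference did not pass (1.10, edgeR adjusted p = 0.061). Only 34.2% of its 50-base stretches are unique.

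Its divergent neighbour Hist1h2ad, an H2A gene, had 0.667, 0.515 and 0.624 CPM ipsilaterally and 0.251, 0.695 and 0.167 contralaterally at 12 h, and the sides overlapped. Over 4 times its log2 fold change was 0.62 ± 0.26 (edgeR adjusted p = 0.0703). The 4 other head-to-head pairs with starts 173 to 251 bases apart were 1 H2A and 1 H2B gene each. In 2 of them the members had log2 fold changes of opposite sign over the 4 times, namely Hist1h2ae (-0.18) with Hist1h2bg (0.34) and Hist3h2bb-ps (-0.31) with Hist3h2a (0.15). The other values were 0.14 for Hist1h2ac and 0.13 for Hist1h2bc, and -0.02 for Hist2h2ac and -0.36 for Hist2h2be.

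Among H4 genes Hist1h4i (chromosome 13, 22040636 to 22041362, minus strand) was higher ipsilaterally at 6 and 12 h. At 6 h it had 7.61, 7.94 and 9.62 CPM against 5.92, 4.17 and 4.89, without overlap (0.75 ± 0.20 on the log2 scale, edgeR adjusted p = 0.0186). At 12 h it had 8.07, 5.69 and 8.76 CPM against 4.43, 5.65 and 4.81, where the lowest ipsilateral library lay just above the highest contralateral one (0.60 ± 0.20, edgeR adjusted p = 0.0498). At 24 h the sides overlapped at 3.68, 6.2 and 5.11 CPM against 5.01, 4.1 and 5.2. The 6 h call was lost without contralateral replicate 2 or 3 or ipsilateral replicate 2 or 3 (edgeR adjusted p = 0.114, 0.0724, 0.0553 and 0.0686). The 12 h call was lost without contralateral replicate 1, 2 or 3 or ipsilateral replicate 1 or 3 (edgeR adjusted p = 0.183, 0.0599, 0.128, 0.178 and 0.208), with no filter on low counts (0.0608) and without very abundant RNAs (0.0518). Over 4 times it was 1.43-fold higher (0.52 ± 0.10, edgeR adjusted p = 0.000238), higher in 10 of 12 pairs, and this call was kept without any single library.

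The H4 gene Hist1h4m (chromosome 13, 21811746 to 21812147, plus strand) was 1.44-fold higher over the 4 times (0.53 ± 0.12, edgeR adjusted p = 0.00127) and in 10 of 12 pairs. Its 12 ipsilateral libraries ran from 3.74 to 9.83 CPM with a median of 7.97, and its contralateral ones from 2.36 to 7.66 with a median of 5.35. The sides did not overlap at 3 of 4 times, the exception being 24 h with 3.74, 7.48 and 5.93 CPM against 5.33, 7.66 and 4.6. Only 10.2% of its 50-base stretches are unique. The H4 gene Hist1h4j was 1.29-fold higher (0.37 ± 0.12, edgeR adjusted p = 0.0202), with a median of 4.12 CPM ipsilaterally against 3.13, and did not pass without ipsilateral replicate 3 at 6 h (0.0578) or replicate 2 at 24 h (0.051). The H2B gene Hist1h2bg had a median of 7.08 CPM against 5.44 and was 1.27-fold higher (0.34 ± 0.10, edgeR adjusted p = 0.0094). The sixth was the H3 gene Hist1h3a, with medians of 2.24 and 1.59 CPM and a 1.31-fold higher level (0.39 ± 0.15, edgeR adjusted p = 0.0418). The call of Hist1h3a was lost without any 1 of 12 libraries, at edgeR adjusted p values of 0.0544 to 0.1. These were contralateral replicate 1 at 3 h, 2 and 3 at 6 h, 1 and 3 at 12 h and 1 at 24 h, and ipsilateral replicate 2 at 3 h, 3 at 6 h, 1 and 2 at 12 h and 2 and 3 at 24 h.

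All 3 members that were lower ipsilaterally over the 4 times are named as H2B, and none is in the Hist1 cluster. Hist2h2be (chromosome 3, 96221119 to 96223738, plus strand), an H2B gene with no stem-loop in its annotated transcript and no repeated 50-base stretch, had 3.27, 2.77 and 2.97 CPM ipsilaterally at 6 h against 5.49, 4.22 and 4.18 contralaterally. The sides did not overlap and the level was 1.54-fold lower (-0.62 ± 0.18 on the log2 scale, edgeR adjusted p = 0.0265). At 24 h they overlapped, at 3.6, 3.1 and 3.08 CPM against 3.4, 3.23 and 3.25. Over 4 times it was 1.28-fold lower (-0.36 ± 0.09, edgeR adjusted p = 0.00225), lower in 10 of 12 pairs and called without any single library. The 6 h call was lost without contralateral replicate 1 or ipsilateral replicate 2 or 3 (edgeR adjusted p = 0.155, 0.138 and 0.0556).

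Hist3h2bb-ps, annotated as a processed pseudogene, had 2.97, 2.29 and 2.18 CPM ipsilaterally at 24 h against 4.16, 4.05 and 3.95. There was no overlap and the level was 1.64-fold lower (-0.71 ± 0.20, edgeR adjusted p = 0.0121), which did not pass without ipsilateral replicate 3 (-0.63, edgeR adjusted p = 0.0585). Over 4 times it was 1.24-fold lower (-0.31 ± 0.10, edgeR adjusted p = 0.0157, and 0.0521 without contralateral replicate 2 at 3 h). Its neighbour Hist3h2ba, an H2B gene, had medians of 9.19 CPM ipsilaterally and 12.2 contralaterally and was lower in 11 of 12 pairs (1.26-fold, -0.34 ± 0.12, edgeR adjusted p = 0.0284). Its call was lost without any 1 of 8 libraries, at adjusted p values of 0.0505 to 0.0629. These were contralateral replicates 2 and 3 at 3 h, 1 at 6 h and 3 at 12 h, and ipsilateral replicates 2 at 6 h, 1 and 3 at 12 h and 3 at 24 h.

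**Figure D4:**
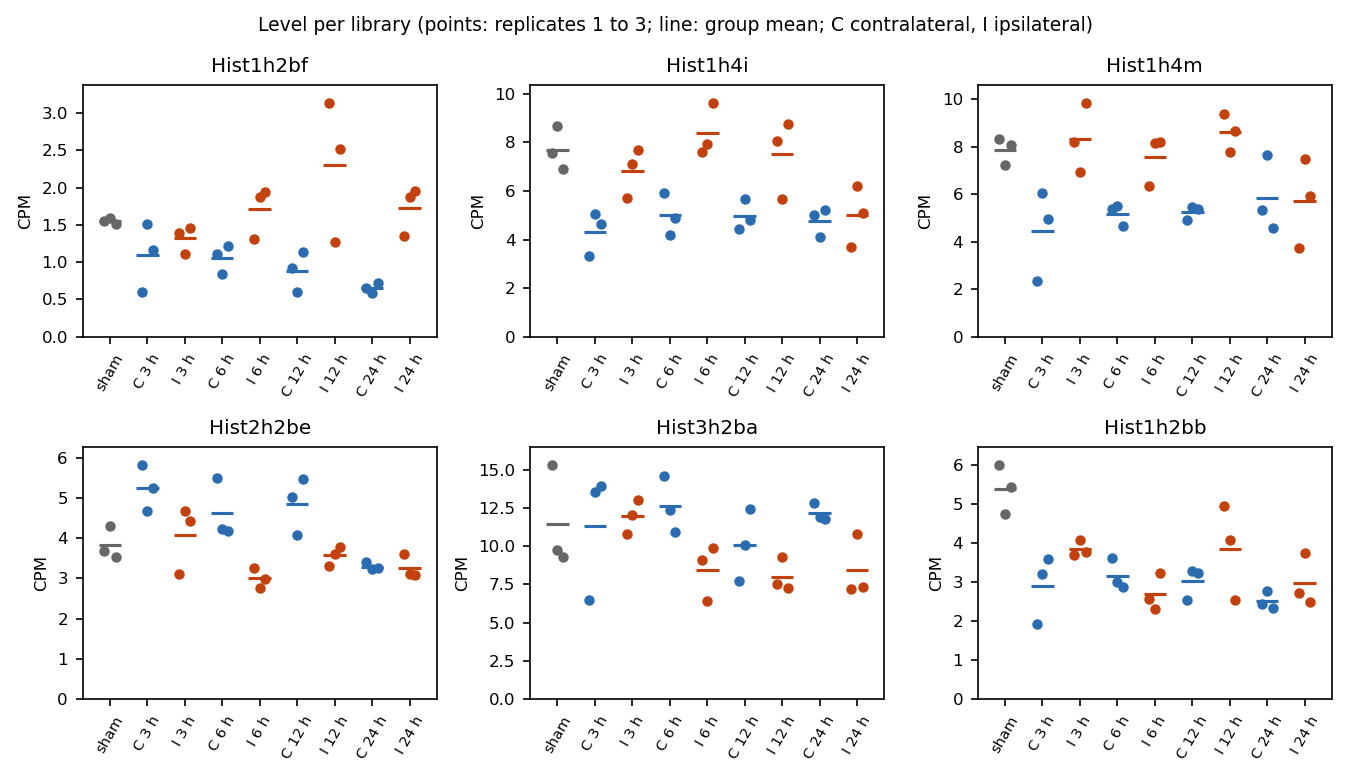
CPM per library (points, replicates 1 to 3 from left to right) and group mean (line) of 6 members in sham, contralateral (C) and ipsilateral (I) cortex, with axes from 0. Ipsilateral libraries of Hist1h2bf lie above contralateral ones at 6, 12 and 24 h, those of Hist2h2be lie below them at 6 and 12 h, and all 24 stroke libraries of Hist1h2bb except 1 lie below the lowest sham library.

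By place of the stem-loop, the 13 members with it within 100 bases of the end had a median log2 fold change of 0.392 over the 4 times, with 3 higher and 0 lower calls. The 17 tested members with it further upstream had 0.113 with 3 higher and 1 lower. The 10 tested members without it in the annotated transcript had 0.03 with 0 higher and 2 lower. An annotation that stops before the stem-loop also puts a member in this last kind, so it is not a set of mRNAs known to lack it. No test was made of these differences. Of all tested genes 17.7% were called higher and 15.3% lower over the 4 times. With both directions together, no kind had a larger share of calls than the 33% of all tested genes. The kinds also differ in annotated exon length, with 391 to 706 bases for the first, 539 to 7425 for the second and 312 to 2620 for the third, and in the first at most 60.5% of the 50-base stretches of a member are unique. Across the 40 tested members the Spearman correlation of the 4-time log2 fold change with GC content was 0.07, with mean CPM -0.403 and with the share of unique stretches -0.364, given as a description over genes that share libraries. By histone the medians were 0.02 for H1, 0.144 for H2A, 0.195 for H2B, 0.233 for H3 and 0.126 for H4.

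No member passed the test of whether the effect of side differed between times (0 of 40, against 1.34% of all genes). At an unadjusted p under 0.05 edgeR gave 5 members (12.5%, against 16.6% of all tested genes) and DESeq2 4, and DESeq2 called 0. The lowest adjusted p was 0.167 for the H4 gene Hist1h4c. It had 33.9, 36.2 and 38.2 CPM ipsilaterally at 3 h against 15.5, 30.5 and 31 contralaterally, and 20.9, 30.3 and 22.7 against 34.4, 40.1 and 26.3 at 24 h. All ipsilateral libraries were higher at 3 h, and the sides overlapped at 24 h.

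Comparisons with sham share the same 3 sham libraries. Ipsilateral cortex had 0 members past the threshold at 3 h (0.243% of all genes), 1 at 6 h (6.11%), 0 at 12 h (10.3%) and 5 at 24 h (22.2%), all of them lower than sham. At 3 and 12 h 2 and 7 members had an unadjusted p under 0.05 (5% and 17.5% of members, against 8.58% and 24.9% of all tested genes) and DESeq2 called 0. At 24 h 34 of 40 members had a negative log2 fold change, with a median of -0.349 against 0.03 for all genes, and -0.229 without the libraries that stood apart. Lower calls made up 1.09% of all genes at 6 h and 10.9% at 24 h. Contralateral cortex had 0 members past the threshold at 3 h (0.0111% of all genes), 6 h (0.0332%) and 12 h (0.238%), and 1, lower than sham, at 24 h (0.111%, and 0.0829% in that direction). At 3, 6 and 12 h 9, 3 and 11 members had an unadjusted p under 0.05, which is 22.5%, 7.5% and 27.5% of members against 8.64%, 4.3% and 7.45% of all tested genes, and DESeq2 called 1, 0 and 1. Contralateral medians were -0.307, -0.09, -0.336 and -0.311 in time order, and -0.02 at 3 h without the libraries that stood apart.

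The H2B gene Hist1h2bb (chromosome 13, 23746734 to 23747241, plus strand) had 6.00, 4.76 and 5.45 CPM in sham. Ipsilaterally it had 2.57, 2.32 and 3.23 CPM at 6 h and 2.72, 3.74 and 2.48 at 24 h, and contralaterally 2.44, 2.76 and 2.35 at 24 h. None of these groups overlapped sham, and Hist1h2bb was 1.99-fold lower ipsilaterally at 6 h (-0.99 ± 0.23, edgeR adjusted p = 0.00803) and 1.82-fold lower at 24 h (-0.86 ± 0.23, edgeR adjusted p = 0.00807). The 6 h call was lost without ipsilateral replicate 2 (edgeR adjusted p = 0.0701). Contralaterally at 24 h it was 2.15-fold lower (-1.10 ± 0.23, edgeR adjusted p = 0.0457). With a replicate block the adjusted p was 0.0516, and with no filter on low counts 0.0507. Without any 1 of the 3 sham or 3 contralateral libraries it was 0.27, 0.123, 0.217, 0.233, 0.137 and 0.203 in order of replicate. Between the sides it did not pass at any time, and its 4-time log2 fold change was 0.20 ± 0.12 (edgeR adjusted p = 0.205).

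The other 4 members lower than sham in ipsilateral cortex at 24 h encode H4. Hist1h4f (chromosome 13, 23551258 to 23551648, minus strand) had 6.73, 9.41 and 6.95 CPM against 14.3, 12.8 and 13.1 in sham, with no overlap, 1.74-fold lower (-0.80 ± 0.18, edgeR adjusted p = 0.00208) and called without any single library. Hist1h4h had 14.4, 18.9 and 12.2 CPM against 30.4, 30.9 and 25.9, also apart and 1.92-fold lower (-0.94 ± 0.29, edgeR adjusted p = 0.0232). Hist1h4i, higher than contralateral cortex at 6 and 12 h, had 3.68, 6.2 and 5.11 CPM against 7.55, 8.67 and 6.91 (1.54-fold lower, edgeR adjusted p = 0.025). Hist1h4a had 3.54, 5.75 and 4.07 CPM against 8.55, 5.3 and 6.62, and here 1 ipsilateral library lay inside the sham range (1.53-fold lower, edgeR adjusted p = 0.0499). Of these 4 members only Hist1h4f kept its call when each library was left out in turn. Without sham replicate 1, sham replicate 2, ipsilateral replicate 1 or ipsilateral replicate 3 Hist1h4h had 0.0671, 0.0707, 0.072 and 0.106, and Hist1h4i 0.057, 0.107, 0.137 and 0.0566. Hist1h4a had 0.265, 0.0841, 0.187 and 0.15 without sham replicate 1 or 3 or ipsilateral replicate 1 or 3, and 0.053 to 0.057 with DESeq2 size factors, no filter or a filter of 1 CPM. The count of 5 became 2 without sham replicate 1 or ipsilateral replicate 3, and 3 without sham replicate 2. Without the 2 libraries that stood apart Hist1h4i and Hist1h4a had 0.0927 and 0.127.

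Short RNAs without poly(A) tails had negative medians against sham, but several of them were spread widely in sham itself. The 8 tested genes of a list of such RNAs, which includes Rn7sk and Rny1, had medians of -0.75, -0.948, -0.869 and -1.05 ipsilaterally and -0.536, -0.268, -0.731 and -0.78 contralaterally in time order. In sham Rny1 ran from 18.8 to 264 CPM, Rnu12 from 14.3 to 63.3, Rnu11 from 4.64 to 14.8 and Rn7sk from 11380 to 17510. Only Rn7sk passed, at 24 h, 1.7-fold lower than sham ipsilaterally (edgeR adjusted p = 0.00149). The source of these negative medians, the spread in sham included, was not tested, nor was its part in the members' values. By place of the stem-loop, the 13 members with it within 100 bases of the end had 0, 1, 0 and 0 positive log2 fold changes against sham in contralateral cortex in time order, with medians of -0.527, -0.342, -0.643 and -0.587. The 17 with it further upstream had 5, 9, 2 and 4 positive (medians -0.315, 0.0026, -0.227 and -0.292). The 10 without it in the annotated transcript, which may stop before it, had 3, 8, 3 and 5 (medians -0.169, 0.05, -0.09 and -0.06). In ipsilateral cortex the kinds lay closer together, with 3, 4, 6 and 2 of 13 positive in the first (medians -0.138, -0.18, -0.163 and -0.462), 9, 7, 10 and 2 of 17 in the second (0.06, -0.1, 0.03 and -0.357) and 7, 3, 4 and 2 of 10 in the third (0.05, -0.123, -0.04 and -0.247). The contralateral values at 3 h include the library that stood apart, all these values share the sham libraries, and no test was made between the kinds.

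**Figure D5:**
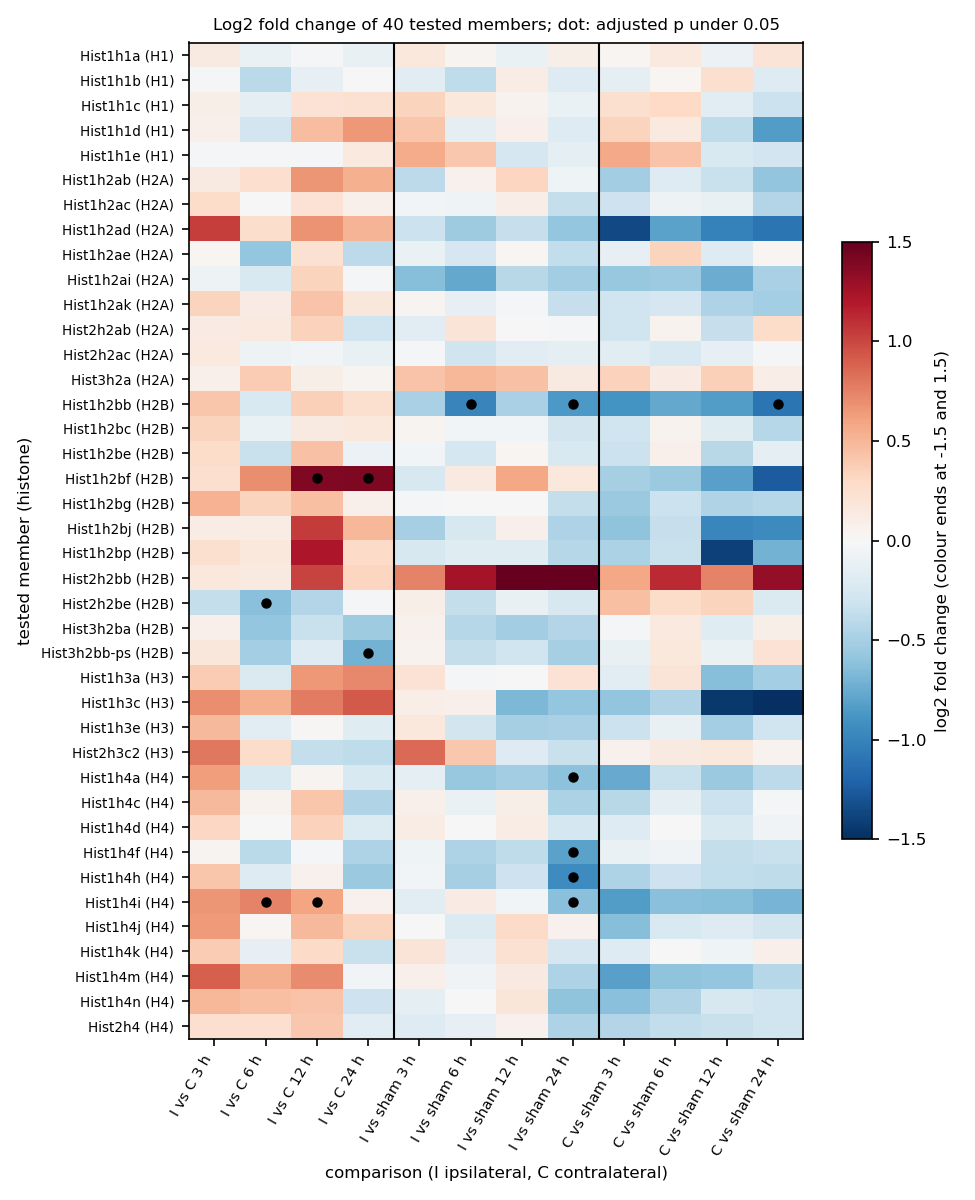
Log2 fold change of the 40 tested members (rows, sorted by histone) in 12 comparisons (columns), with colour from blue (lower) to red (higher) and a dot where the edgeR adjusted p is under 0.05. The ipsilateral to contralateral columns at 3 and 12 h are mostly red, most contralateral to sham values are blue, and dots are few.

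The largest positive values against sham belonged to Hist2h2bb, an H2B gene chosen here after its values were seen. It had 0.324, 0.137 and 0.204 CPM in sham, 0.87, 0.27 and 1.13 ipsilaterally at 12 h and 0, 0.556 and 0.557 contralaterally, where the count of 0 allows up to 0.0774 CPM. Its log2 fold change of 1.76 ± 0.71 ipsilaterally at 12 h did not pass (edgeR adjusted p = 0.113). None of its 50-base stretches is unique.

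Other genes of the histone system were followed as lists over the mean of the 4 times, in which 33% of all genes passed. Of 10 tested replacement histone genes, most of which are also made outside S phase and usually with poly(A) tails, 2 rose and 3 fell, with a median of -0.08. H3f3b, which encodes histone H3.3, rose 1.41-fold (edgeR adjusted p = 2.76e-06). Its level was 132 ± 17.2 CPM (SD, n = 3) ipsilaterally at 6 h against 86.6 ± 10.9 contralaterally. Cenpa, the H3 variant of centromeres, rose 1.81-fold, while H2afz and H2afv, which encode forms of H2A.Z, fell 1.17-fold and 1.14-fold. Cenpa was scarce, with 1.229 to 1.575 CPM in sham. Ipsilaterally it had 2.637 to 3.536 CPM at 6 h against 0.9166 to 1.951 contralaterally. At 24 h the sides overlapped, at 1.126 to 5.848 CPM against 1.316 to 2.648. Of 21 tested genes for the synthesis and end processing of histone mRNA 6 rose and 1 fell, a share near that of all genes, with a median of 0.03. They included Nfya, a subunit of the factor that binds CCAAT (1.62-fold higher, edgeR adjusted p = 2.35e-07), Lsm11, a protein of the U7 particle that cuts histone mRNA ends (1.42-fold), Yy1 (1.25-fold) and Pou2f1, an octamer-binding factor (1.2-fold). Nfya averaged 17.6 ± 2.96 CPM (SD, n = 3) ipsilaterally at 12 h and 10.8 ± 0.267 contralaterally. Of 13 histone chaperone genes Npm1 rose 1.16-fold and Atrx fell 1.16-fold.

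Of 26 genes for DNA replication and S phase 3 rose and 1 fell over the 4 times, a smaller share than the 33% of all genes, with a median of 0.07. The licensing factors Cdc6 and Cdt1 were 2.31-fold and 1.86-fold higher, the helicase gene Mcm3 1.26-fold higher, and E2f1, a transcription factor of S phase genes, 1.28-fold lower. At 24 h 4 rose and 2 fell, where 19.1% of all genes passed, with a median of 0.208. Of 17 tested genes for mitosis 2 rose, Ccnb1 (2.36-fold) and Cenpf (1.67-fold). Sham libraries had 1.024 to 3.011 CPM of Ccnb1. Ipsilaterally it had 3.185 to 4.24 CPM at 6 h and 1.593 to 2.684 at 24 h, against 1.375 to 1.631 and 0.511 to 1.146 contralaterally. The ipsilateral values at 24 h thus lay within the sham range. Cenpf was scarce, with group means from 0.288 to 0.965 CPM. Cdt1 was at 3.07 ± 0.945 CPM (SD, n = 3) ipsilaterally at 24 h and 1.51 ± 0.984 contralaterally, and Cdc6 at 0.898 ± 0.127 and 0.487 ± 0.196. At that time 1 clustered histone gene was higher and 1 lower ipsilaterally.

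Markers of cell types moved with side and time, and their part in the members' values was not tested. The summed level of 8 neuron markers was 2530 to 2880 CPM ipsilaterally at 24 h, 3830 to 4170 contralaterally and 3720 to 4170 in sham, so neuronal RNA was abundant in this cortex, and 4 of the 8 markers were lower ipsilaterally than contralaterally at 24 h. The calls that follow are also between the sides at 24 h, where 19.1% of all genes passed. Of 6 microglia markers the sum was 112 to 180 CPM ipsilaterally and 98.4 to 178 contralaterally at 24 h, and 2 fell. The 6 monocyte and macrophage markers summed to 49.6 to 141 CPM against 58.2 to 84.7, and 2 rose. Of the 9 neutrophil markers 7 were tested and 1 rose, with sums of 6.19 to 21.5 CPM against 5.84 to 7.73. The sums of 6 astrocyte markers were 1050 to 1820 CPM against 1110 to 1220 (2 rose, 1 fell), of 6 endothelial markers 143 to 279 against 153 to 169 (2 rose, 1 fell), of 6 oligodendrocyte markers 945 to 1160 against 1050 to 1360 (0 changed) and of 6 oligodendrocyte precursor markers 119 to 155 against 116 to 162 (1 rose). Red cell markers summed to 44.4 to 90.8 CPM against 46.3 to 55 (2 of 5 rose). Choroid plexus markers ranged from 4.6 to 739 CPM and striatal neuron markers from 96.3 to 368 over all libraries, with no gene of either list called between the sides at 24 h. Against sham at 24 h, where 22.2% of all genes passed ipsilaterally, 4 of 8 neuron, 3 of 6 oligodendrocyte, 2 of 6 microglia, 1 of 6 oligodendrocyte precursor and 1 of 5 red cell markers were lower in ipsilateral cortex. In the same comparison 4 of 7 tested neutrophil, 2 of 6 monocyte and macrophage, 2 of 6 endothelial and 1 of 6 astrocyte markers were higher, and no choroid plexus or striatal neuron marker passed. Contralaterally 0.111% of all genes passed against sham at 24 h. There 2 of 5 red cell markers were lower and 1 of 6 endothelial markers was higher than sham, and no other marker passed. In sham the sums were 1190 to 1480 CPM for oligodendrocyte, 4.52 to 5.05 for neutrophil and 79.8 to 98.7 for red cell markers.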

How the data were processed

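The deposited table holds raw read counts per gene, whole numbers with no normalization by the authors, for 27 libraries. Per the submitters' processing notes STAR 2.5.0a, the mm10 build, featureCounts 1.4.3-p1 and edgeR were used; no source used here gives the annotation, the strand setting or the handling of reads with several matches. Totals ran from 26505996 to 48830897 counts. No 2 libraries of a group were identical, and their lowest Spearman correlation was 0.976.

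All 27 libraries were fitted together with edgeR 4.0.16 (R 4.3.3, limma 3.58.1): filterByExpr (minimum count 10, total 15), TMM normalization, 1 mean per group and the robust quasi-likelihood test, two-sided. This left 18087 of 22340 genes and removed 0.0116% of counts. The spread left 18 residual degrees of freedom, the biological coefficient of variation shared by all genes was 0.175, and p-values were adjusted by Benjamini-Hochberg over all tested genes, with a threshold of 0.05. Fold changes are ± SE. Limits from a count of 0 use 3 counts and cover counting error only. Alternatives were DESeq2 size factors, no filter, at least 1 CPM in 3 libraries, DESeq2 1.42.0, very abundant RNAs left out, a replicate block, a GC correction, both of these, leaving out the 2 libraries that stood apart, and leaving out each library in turn.

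On simulated counts for the 18087 genes of ipsilateral against contralateral cortex at 24 h, 37 of 100 genes changed 1.5-fold and 90 of 100 changed 3-fold were recovered, with 6 false among 133 calls. In the data 3455 genes passed in that comparison. The adjusted threshold was therefore stricter in the simulation, and its recovery does not measure that of the 24 h comparison. The labels tie each replicate number to a day of surgery, so the numbers pair libraries. Deviations from group means correlated on average by 0.0475 between libraries with the same number (108 pairs, 31 over 0.1) and by -0.0237 between others (216 pairs, 15 over 0.1).

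The members and gene lists were chosen with earlier results of these data known. Members named are, of those past the threshold, the 8 with the smallest p at each time between the sides, the 10 in their mean and the 5 against sham, besides the 3 with the highest CPM per kb of each histone and, of each list, the 4 with the smallest p. Hist1h4c in the test between times, Hist2h2bb and the partners in head-to-head pairs were named after their values were seen. Stem-loops were searched in whole annotated GENCODE M21 transcripts. Promoter windows are from RefSeq (GRCm38.p6).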

Additional observations from a re-analysis of the deposited data

Results flagged for a closer look

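In 8 members the same-numbered pairs of libraries all pointed one way at 1 time after reperfusion and all the other way at another. All 40 tested members and every combination of times were searched, and random signs can also meet this rule. The share of all tested genes that meets it was not computed, so the count cannot be called high or low. Values are the mean log2 difference of ipsilateral minus contralateral cortex over the 3 pairs at the first time minus that at the second. The difference between these pairs of times was not tested, and the test over all 4 times missed the threshold in every one (edgeR adjusted p = 0.167 to 0.607).

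Of the H4 genes, Hist1h4c differed by 1 between 3 h (0.557) and 24 h (-0.445) and by 0.863 between 12 h (0.418) and 24 h. Hist1h4d differed by 0.591 between 3 h (0.375) and 24 h (-0.216) and by 0.562 between 12 h (0.346) and 24 h. Hist1h4h differed by 1.11 between 3 h (0.563) and 24 h (-0.547). Hist1h4k differed by 0.604 between 3 h (0.476) and 6 h (-0.127), by 0.843 between 3 and 24 h (-0.367), by -0.426 between 6 and 12 h (0.299) and by 0.666 between 12 and 24 h.

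The H3 genes Hist1h3e and Hist2h3c2 differed by 0.745 between 3 h (0.566) and 24 h (-0.179) and by 1.01 between 3 h (0.632) and 24 h (-0.381). Hist1h2ae, an H2A gene, differed by -0.8 between 6 h (-0.58) and 12 h (0.22) and by 0.615 between 12 and 24 h (-0.395). The H2B gene Hist1h2be differed by -0.782 between 6 h (-0.344) and 12 h (0.438).

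The 3 h values include the contralateral library that stood apart. In the pair that holds it the 6 members with a 3 h value differed by 0.95 to 1.47 at 3 h, and in the other pairs by 0.0217 to 0.351. The 24 h values include the ipsilateral library that stood apart, also in the pair of replicate 1. In that pair Hist1h4d had -0.511 at 24 h against -0.0636 and -0.0728 in the others, Hist1h4k -0.66 against -0.175 and -0.265, and Hist1h3e -0.31 against -0.216 and -0.0124. Hist1h4c had -0.718 there against -0.406 and -0.212, and Hist1h4h -0.704 against -0.492 and -0.445. For Hist1h2ae the values were -0.475 against -0.268 and -0.443, and for Hist2h3c2 -0.00021 against -0.789 and -0.353, so that 1 of its 3 pairs was close to 0.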

How the results depend on the processing

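Of 22 calls of a member in a comparison, none reversed under any alternative. DESeq2, the GC correction and the GC correction with a replicate block kept all 22, no filter kept 19, leaving out the 2 libraries that stood apart kept 20, and each other setting, the replicate block included, kept 21. The block changed no call other than that of Hist1h2bb in contralateral cortex against sham at 24 h. The counts that follow are given without the share of all genes called under the same setting, so they do not show whether members moved more than other genes. Counts of called members between the sides moved at 3 h from 0 to 1 with DESeq2 and at 6 h from 2 to 5 without the libraries that stood apart. At 12 h the count moved from 2 to 1 with no filter and without abundant RNAs, to 4 with DESeq2, the GC correction and the GC correction with the block, and to 5 without those libraries. Against sham the ipsilateral count at 6 h moved from 1 to 2 with the GC correction and without those libraries and to 3 with the GC correction and the block. The contralateral count moved from 0 to 1 with DESeq2 at 3 and 12 h, and from 1 to 0 at 24 h with no filter and with the replicate block; the cause was not tested. Leaving out each library gave, between the sides, 0 to 1 at 3 h, 0 to 2 at 6 h, 0 to 2 at 12 h, 1 to 3 at 24 h, 7 to 11 in the mean and 0 to 0 for differing effects. Against sham it gave ipsilaterally 0 to 0, 0 to 1, 0 to 0 and 2 to 6 in time order, and contralaterally 0 to 0 at every time. With 3 libraries a group, most changes of 1.5-fold were missed in the simulation, where far fewer genes were changed than were called in the data at 24 h.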
